A study of Mus musculus with 8 samples.

Results

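Csta3, Cstdc4, Stfa3 and Stfa2l1 are 4 genes of the mouse stefin A cluster, measured here in the aorta of newborn mice that lack lysyl oxidase (Lox) and of wild-type mice. They were chosen by symbol, as the probe sets that the platform table assigns to these genes, after their signal had been seen to be much higher in the knockout ascending aorta. Each has 1 probe set, so they make up 4 of the 22180 genes with a probe set of their own, and no probe set shared between several genes carries any of the 4 symbols. The 4 groups were KO ascending, WT ascending, KO descending and WT descending aorta, all from postnatal day 0 pups on an albino C57BL/6J background. The labels give the KO genotype as a lysyl oxidase knockout, with no further detail of the allele, and the WT pups as its controls. The ascending segment ran from the aortic valve to the ductus arteriosus, and the descending segment ended at the diaphragm. Every group had 2 Affymetrix arrays, each of RNA from a pool of 8 pups of like genotype, so every value below is of a pool, and n = 2 pools per group. The number of arrays limits the precision. Values are log2 signals after RMA, the authors' background correction, normalization and summary of probes.

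Stefins are small inhibitors that stay inside the cell and bind papain-like cysteine proteases such as the lysosomal cathepsins B, H, L and S. They lack the signal peptide that the secreted cystatins carry. The human genome has CSTA as its stefin A gene, whereas in the mouse stefin A genes have multiplied into a tandem cluster, and transcripts of several of them are abundant in neutrophils and their precursors. Csta3, Cstdc4, Stfa3 and Stfa2l1 belong to this family by sequence; which protease each inhibits best is not known from the data here. Because the copies are alike, a probe set named for one may also take up transcripts of another, which was not tested, and the 4 signals may not be independent measurements.

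In RefSeq's mouse annotation (GRCm38.p6) the stretch of chromosome 16 from Csta1 to Stfa3 holds 12 protein-coding genes, in the order Csta1, Stfa2l1, Cstdc4, Csta3, Csta2, Stfa1, Cstdc3, Cstdc6, Cstdc5, Gm7260, Stfa2 and Stfa3. Stfa2l1, Cstdc4 and Csta3 are direct neighbours among these coding genes, and Stfa3 lies at the far end on the opposite strand. The annotation also lists Stfa3 as an older name of Stfa1, which has its own probe set here. Of the 12 genes, 11 had a probe set of their own. The 250 bases before the annotated start of each member are printed from RefSeq's GRCm38.p6 promoters, 5′ to 3′ on the gene's strand, because the 4 genes were chosen together and their upstream stretches are alike. Csta2, which lies next to Csta3 but had a dim signal, is added for contrast. Capitals mark the runs of at least 10 bases that all 4 members have in common.
Stfa2l1, chr16:36156561-36156810, plus strand: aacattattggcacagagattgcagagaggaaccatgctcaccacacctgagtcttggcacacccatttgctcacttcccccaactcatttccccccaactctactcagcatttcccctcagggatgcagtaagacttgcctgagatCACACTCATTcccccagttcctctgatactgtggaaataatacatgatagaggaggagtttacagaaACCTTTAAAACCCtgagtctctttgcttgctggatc
Cstdc4, chr16:36183962-36184211, plus strand: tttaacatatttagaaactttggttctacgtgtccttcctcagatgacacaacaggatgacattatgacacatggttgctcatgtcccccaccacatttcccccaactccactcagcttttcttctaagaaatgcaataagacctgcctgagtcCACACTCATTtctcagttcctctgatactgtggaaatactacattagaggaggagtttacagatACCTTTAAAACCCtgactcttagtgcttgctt
Csta3, chr16:36210153-36210402, plus strand: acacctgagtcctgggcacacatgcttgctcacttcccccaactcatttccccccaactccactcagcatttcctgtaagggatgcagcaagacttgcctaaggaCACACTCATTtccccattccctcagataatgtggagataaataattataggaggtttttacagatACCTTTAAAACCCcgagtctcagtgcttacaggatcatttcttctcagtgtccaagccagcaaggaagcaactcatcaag
Stfa3, chr16:36455393-36455642, minus strand: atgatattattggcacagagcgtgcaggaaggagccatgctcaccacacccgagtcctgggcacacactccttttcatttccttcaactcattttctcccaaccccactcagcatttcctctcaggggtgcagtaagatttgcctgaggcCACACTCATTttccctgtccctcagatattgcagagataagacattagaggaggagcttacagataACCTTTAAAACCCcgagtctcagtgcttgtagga
Csta2, chr16:36221312-36221561, plus strand: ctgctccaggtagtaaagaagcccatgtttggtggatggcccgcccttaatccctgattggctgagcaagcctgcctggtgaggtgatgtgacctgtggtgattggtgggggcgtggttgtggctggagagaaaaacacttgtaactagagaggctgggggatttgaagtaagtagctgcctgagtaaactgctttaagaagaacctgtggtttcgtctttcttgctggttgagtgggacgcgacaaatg

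The longer run in capitals, ACCTTTAAAACCC, began 36 bases before the start of Stfa2l1, 32 before that of Cstdc4, 80 before that of Csta3 and 34 before that of Stfa3. It occurred, on either strand, in 9 of 32851 RefSeq promoters of 300 bases (0.0274%), and all 9 belonged to the stefin A cluster, namely the 4 members, Stfa1, Cstdc3, Cstdc5, Gm7260 and Stfa2. The shorter run, CACACTCATT, was found in 37 promoters (0.113%). A further run shared by all 4 members, GATCATTTCTTCT, lies upstream in Csta3 and across or just after the start in Stfa2l1, Cstdc4 and Stfa3. It was found in 10 promoters (0.0304%), 9 of them in the cluster. These runs were read out of the members' own sequences. Cstdc3 and Stfa2 also carry both of the 13-base runs and had dim signals, so the runs did not separate the bright members from the dim ones. Over the parts that could be aligned, which spanned 190 to 299 columns including gaps, the promoters of the 6 member pairs were 80.0% to 84.5% identical. Of 4 motifs searched on both strands, with any overlaps kept, a C/EBP-like TTNNGNAA was present in 3 of 4 members and in 40.7% of all promoters, GAGGAAG, a core of PU.1 sites, in 1 (Cstdc4) and 13.6%, the AP-1-like TGANTCA in 1 (Stfa3) and 7.81%, and the TATA box TATAAA in 0 and 13.6%. These are matches of letters in these windows.

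Lox, the gene removed, had signals of 8.87 and 8.74 in KO and 11.47 and 11.60 in WT ascending aorta, and of 8.56 and 8.51 in KO and 11.41 and 11.24 in WT descending aorta. It fell by 2.73 on the log2 scale in KO ascending and fell by 2.80 in KO descending aorta (adjusted p = 5.35e-05 and 4.43e-05 by limma over 16635 genes tested, with Benjamini-Hochberg adjustment). A smooth muscle list of 12 genes and an endothelial list of 12 genes were measured in full. None of the muscle genes passed in either segment (0 of 12 in each). At an unadjusted p under 0.05, 1 was higher and 2 lower in the ascending and 2 higher in the descending aorta. Of the endothelial genes, 2 fell in the ascending and 1 in the descending KO aorta, where 1.19% and 0.824% of all genes tested did so. Their median differences were -0.32 and -0.35. Markers of neighbouring tissues stood apart on some pools. The summed signal of 12 lymphocyte and thymus genes was 9.80 in WT ascending pool 1 and 8.61 in WT ascending pool 2, and Scgb1a1, an airway secretory gene, read 4.66 and 8.26 in the same pools, 7.90 and 6.999 in the WT descending pools and 4.12 to 4.86 in the 4 KO pools. Sftpc, a lung surfactant gene, read 8.37 and 10.14 in the WT descending pools and 4.50 to 5.07 in the other 6. Their part in the results below was not tested.

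All 4 stefin A genes had higher signals in KO than in WT ascending aorta, which is the comparison they were chosen on, so these values are a description without a test. Csta3 read 8.11 and 8.48 in the KO ascending pools, against 5.05 and 4.01 in the WT ascending pools, a difference of 3.76 (13.6-fold). Cstdc4 read 8.91 and 9.92 in KO ascending and 6.55 and 5.46 in WT ascending aorta, a difference of 3.41 (10.6-fold). The KO pools stood well above the WT pools for both, and Cstdc4 differed by about 1 log2 unit between the pools of each genotype. Stfa3 read 8.23 and 8.52 in KO ascending and 6.67 and 5.22 in WT ascending aorta, a difference of 2.43 (5.40-fold). Stfa2l1, whose signal was bright in every group, read 9.88 and 10.01 in KO ascending and 8.22 and 6.98 in WT ascending aorta, a difference of 2.35 (5.08-fold). For all 4 genes, both KO arrays lay above both WT arrays in the ascending aorta, as their choice favoured, and 25.6% of all genes tested had this order. Of all genes tested, 2.74% passed in the ascending aorta (1.54% higher and 1.19% lower in KO), and 10.1% were higher at an unadjusted p under 0.05. Among differences towards a higher KO signal, Csta3 had the largest of the 16635 genes, and Cstdc4, Stfa3 and Stfa2l1 ranked 3, 6 and 7. Stfa1, with 1.97, was the closest cluster gene left outside the choice.

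WT ascending pool 2 had the lowest signal of all 8 arrays for each of the 4 genes, and the WT ascending pools differed from each other by more than 1 log2 unit. The size of the ascending difference therefore depended on which WT pool it was set against. Without WT ascending pool 1 it was 4.28 for Csta3, 3.95 for Cstdc4, 3.16 for Stfa3 and 2.97 for Stfa2l1, and without WT ascending pool 2 it was 3.24, 2.86, 1.71 and 1.73 for these genes. In a whole segment of tissue, more cells that hold a transcript and more transcript per cell cannot be told apart.

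**Figure D1:**
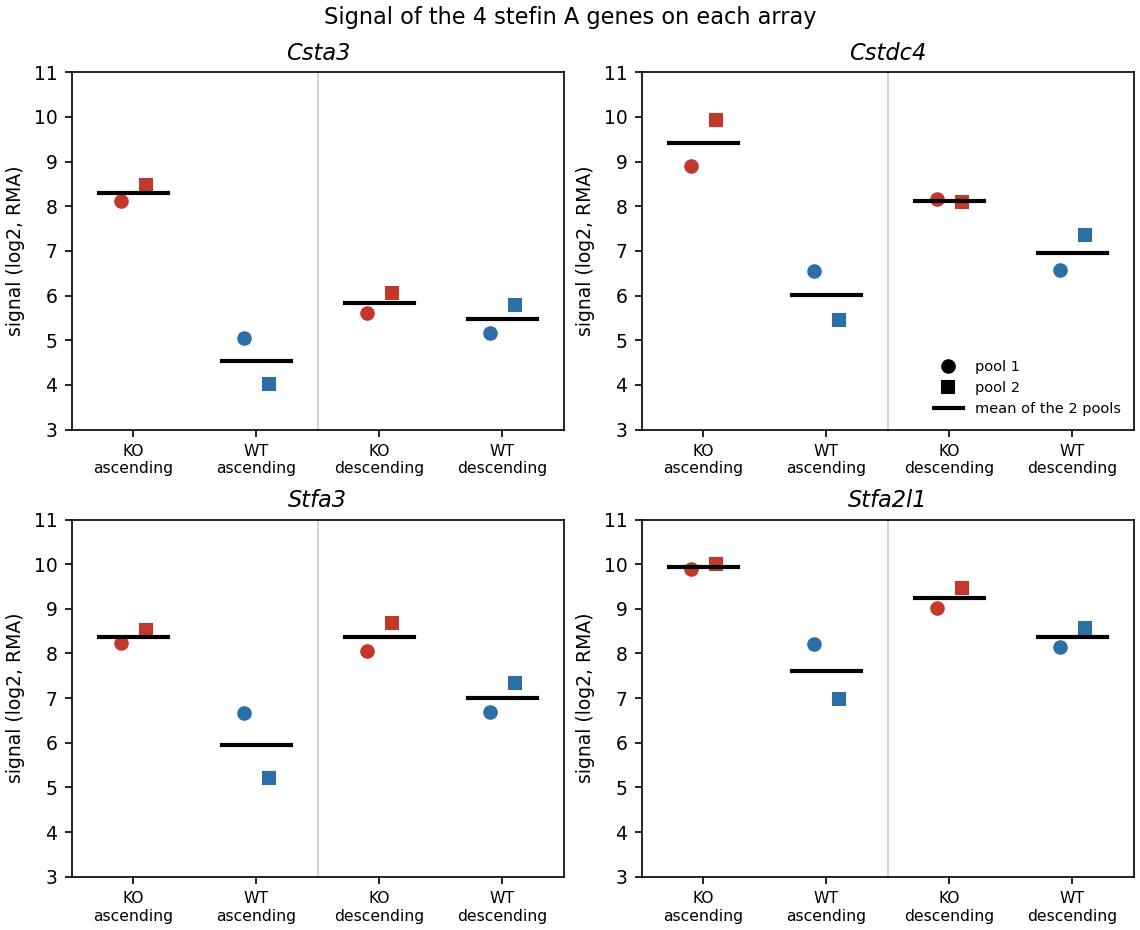
RMA signal (log2) of Csta3, Cstdc4, Stfa3 and Stfa2l1 on each of the 8 arrays, by genotype and segment. Circles and squares are the 2 pools of a group and bars their mean; the KO ascending pools are the highest for Csta3, Cstdc4 and Stfa2l1, and WT ascending pool 2 is the lowest array in every panel.

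The descending aorta was not used to choose the genes, so KO against WT could be tested there. Stfa3 read 8.05 and 8.68 in the KO descending pools and 6.68 and 7.34 in the WT descending pools. The difference was 1.35 (SE 0.43, 95% interval 0.37 to 2.34, adjusted p = 0.144 by limma). Cstdc4 read 8.15 and 8.08 in KO descending and 6.57 and 7.35 in WT descending aorta, a difference of 1.16 (SE 0.42, 95% interval 0.20 to 2.12, adjusted p = 0.188 by limma). Both KO pools were above both WT pools for each of these genes. Stfa2l1 read 9.01 and 9.47 in KO descending and 8.15 and 8.57 in WT descending aorta, again without overlap, with a difference of 0.88 (SE 0.35, 95% interval 0.08 to 1.68, adjusted p = 0.226 by limma). Csta3 read 5.61 and 6.06 in KO descending and 5.16 and 5.79 in WT descending aorta. Its groups overlapped, and the difference was 0.36 (SE 0.34, 95% interval -0.41 to 1.13, adjusted p = 0.624 by limma).

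None of the 4 genes passed in the descending aorta by limma (0 of 4), where 2.28% of genes tested passed, 1.46% with a higher and 0.824% with a lower KO signal. At an unadjusted p under 0.05, Stfa3, Cstdc4 and Stfa2l1 were higher, 3 of 4 genes against 9.71% of all genes tested. The same 3 had both KO arrays above both WT arrays, an order seen in 25.6% of genes. Since the copies may share signal, these 3 do not count as separate results. The intervals allow a difference of up to 2.34 for Stfa3 and of up to 1.13 for Csta3. The ascending difference of 3.76 for Csta3 is the value it was chosen on, so it cannot be weighed against this interval. By size of a difference towards a higher KO signal, Stfa3 ranked 32, Cstdc4 57, Stfa2l1 115 and Csta3 1195 among the 16635 genes in the descending aorta.

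By group means, the segments differed in which stefin A gene stood out. Csta3 averaged 8.29 ± 0.26 in KO ascending and 5.83 ± 0.32 in KO descending aorta (SD, n = 2 pools each), a difference of 2.46 (5.50-fold). Stfa3 averaged 8.38 ± 0.21 in KO ascending and 8.37 ± 0.45 in KO descending aorta, a difference of 0.01. The KO segments thus did not overlap for Csta3 and overlapped fully for Stfa3. Cstdc4 and Stfa2l1, whose KO segments did not overlap either, had KO ascending minus KO descending differences of 1.29 and 0.70. The share of all genes whose KO segments did not overlap was not computed. With 2 pools per group such an order is often met, as KO above WT was in 25.6% of genes in each segment. In WT mice the order was turned, and ascending minus descending differences were -0.94 for Csta3, -0.95 for Cstdc4, -1.07 for Stfa3 and -0.76 for Stfa2l1. WT ascending pool 2 lay below both WT descending pools for each of the 4 genes, whereas WT ascending pool 1 lay close to WT descending pool 1. Segment differences of the members rest on the ascending arrays that chose the genes, and no test of them is given. Over all genes, 0 of 16635 passed the test by limma of whether the KO effect differed between segments.

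Csta3 also moved apart from the other 3 members within arrays, a comparison in which any shift common to all 4 cancels. The level of a probe set cannot be set against that of another, but the change of their difference between arrays can be read. Csta3 minus the mean of Cstdc4, Stfa3 and Stfa2l1 was -0.90 and -1.003 in KO ascending and -2.10 and -1.87 in WT ascending aorta. It was -2.79 and -2.68 in KO descending and -1.97 and -1.97 in WT descending aorta. The 4 WT arrays thus lay between -2.10 and -1.87, with both KO ascending arrays above all of them and both KO descending arrays below. The ascending values are those that chose the members, Csta3 having the largest difference of all genes tested. Its place above on the KO ascending arrays was therefore favoured beforehand and is given as a description. The descending arrays were not used in the choice. Over the 8 arrays, with each gene centred on its own mean, Stfa3 and Stfa2l1 were the most alike pair of members, with a root mean square difference of 0.32, and Csta3 and Stfa3 the least alike, with 0.88.

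The other genes of the cluster were compared in the same way. Of the 11 cluster genes with a probe set, 7 were bright enough to be tested, and besides the 4 members these were Stfa1, Cstdc5 and Cstdc6, all of the same inhibitor family. In the ascending aorta all 3 rose in KO, where 1.54% of genes tested did so. The count cannot be weighed against that share, because 4 cluster genes were left out as dim. Cstdc5 itself cleared the limit for dim genes through its KO arrays. Its group means were 5.215 in KO ascending and 4.63 in KO descending aorta. In WT ascending and WT descending aorta they were 3.67 and 4.045, below that limit. As alike copies, the 3 may also share signal with each other and with the members. Stfa1 read 10.78 and 10.79 in KO ascending and 9.45 and 8.19 in WT ascending aorta (difference 1.97, SE 0.38, adjusted p = 0.0359 by limma). Cstdc5, at 5.12 and 5.31 in KO ascending and 3.86 and 3.48 in WT ascending aorta, rose by 1.55 (SE 0.18, adjusted p = 0.00785 by limma). Its other, dimmer probe set, with a mean signal of 2.25, differed by 0.08 there and was not tested. Cstdc6 rose by 1.40 (SE 0.28, adjusted p = 0.0413 by limma). Both KO ascending pools lay above both WT ascending pools for each of these 3, an order seen in 25.6% of all genes tested. Stfa1 passed in 10 of 18 alternatives and Cstdc6 in 7 of 17. The call for Stfa1 was lost without WT ascending pool 2 (1.34, adjusted p = 0.0968) and that for Cstdc6 likewise (1.00, adjusted p = 0.154), and each was lost without either KO ascending pool, whereas Cstdc5 passed in all 16 alternatives that tested it, at an adjusted p of up to 0.0486. With the replicate number as a block, Stfa1 had an adjusted p of 0.051 and Cstdc6 one of 0.0567.

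In the descending aorta Stfa1, Cstdc5 and Cstdc6 differed by 0.72, 0.58 and 0.89, and none passed (0 of 3 by limma, with Cstdc5 and Cstdc6 at an unadjusted p under 0.05). The test of whether the KO effect differed between segments gave adjusted p = 0.872 for Stfa1, 0.775 for Cstdc5 and 0.934 for Cstdc6. Csta1, Csta2, Cstdc3 and Stfa2 had mean signals of 3.33 to 3.67, below the limit of 4.11 set for dim genes, and were not tested. Of these, Stfa2 read 4.09 and 3.97 in KO ascending and 3.32 and 3.06 in WT ascending aorta, and Cstdc3 read 3.35 and 3.36 in KO ascending and 3.45 and 4.43 in WT ascending aorta. Csta1 and Csta2 differed by -0.09 and 0.12 there. Cstdc1 and Cstdc2, further cystatin-domain genes, differed by -0.17 and 0.09 in the ascending aorta. Cstb, the widely expressed stefin B, read 9.68 and 9.78 in KO ascending and 9.94 and 9.67 in WT ascending aorta, with overlapping pools (difference -0.07, adjusted p = 0.799 by limma).

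**Figure D2:**
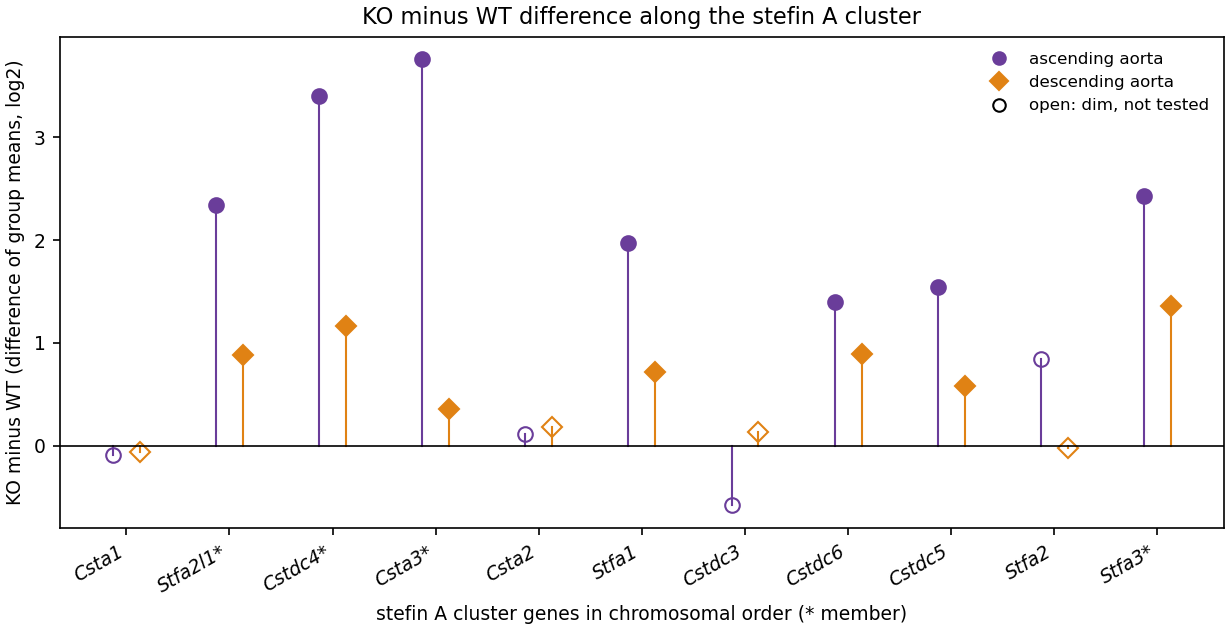
KO minus WT difference of group means (log2) for the 11 genes of the stefin A cluster with a probe set, in chromosomal order, in the ascending (circles) and descending (diamonds) aorta. Open symbols are the 4 dim genes that were not tested. Csta3 has the tallest ascending bar (3.76), the value it was chosen on, beside a descending one of 0.36.

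The proteases that stefins act on were read next. Of 11 cysteine cathepsins tested, none passed in the ascending aorta (0 of 11 by limma, with 2 higher and 2 lower at an unadjusted p under 0.05), and the median difference was 0.001, beside 0.011 over all genes. Ctss, cathepsin S of antigen-presenting cells, read 9.21 and 8.66 in KO ascending and 8.28 and 8.17 in WT ascending aorta (difference 0.71, adjusted p = 0.0742 by limma). Ctso, cathepsin O, read 6.62 and 7.20 in KO ascending and 7.48 and 7.56 in WT ascending aorta (difference -0.61, adjusted p = 0.103 by limma), and differed by -0.67 in the descending aorta (adjusted p = 0.089 by limma). Ctsc, which activates the serine proteases of neutrophil granules, differed by 0.41 (adjusted p = 0.153 by limma). In the descending aorta 1 of 11 passed, Ctsf, which fell by 0.51 (SE 0.10, adjusted p = 0.0475 by limma). Of 6 secreted cystatins and related proteins tested, none passed in the ascending aorta (0 of 6, with 1 at an unadjusted p under 0.05), and Cst3, cystatin C, read 12.01 and 12.05 in KO ascending and 12.14 and 12.20 in WT ascending aorta. The member of that list that rose in the descending aorta was Ahsg, the plasma protein fetuin-A made by the liver, by 2.06 (adjusted p = 0.0354 by limma). Of 7 serpin B protease inhibitors, none passed in the ascending aorta (0 of 7, with 1 higher and 1 lower at an unadjusted p under 0.05), and Serpinb6b rose by 0.57 in the descending aorta (adjusted p = 0.0482 by limma).

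Some neutrophil markers, S100a8 and S100a9 among them, were high on the KO ascending arrays, as the stefin A genes were. Others were not, and Camp and Ngp were highest on KO descending pool 2, at 6.36 and 6.58. In the ascending aorta 11 of 30 tested markers rose in KO, 0 fell and 19 did not pass, with a median difference of 0.79, beside 0.011 over all genes. Of all genes tested, 1.54% rose there. The list was chosen with earlier results of these data known, so the count is not independent of them. S100a8, a calcium-binding protein that fills the neutrophil cytosol, read 10.80 and 10.71 in KO ascending and 8.68 and 7.71 in WT ascending aorta and rose by 2.56 (SE 0.34, adjusted p = 0.0122 by limma). Retnlg, a resistin-like protein of neutrophils, rose by 2.19 and the neutrophil collagenase Mmp8 by 1.99. Retnlg, counted among the 11, read 5.95 and 5.96 in KO ascending and 4.22 and 3.31 in WT ascending aorta. Its mean over the WT arrays of both segments lay below the limit of 4.11 set for dim genes. Retnlg thus cleared that limit through its KO arrays. Clec4d, a lectin receptor of myeloid cells, rose by 1.37, the chemokine receptor Cxcr2 by 1.43 and the decoy receptor Il1r2 by 1.76. The granule gene Camp, with 5.25 and 5.57 in KO ascending and 5.07 and 4.48 in WT ascending aorta, did not pass (difference 0.63, adjusted p = 0.226 by limma). The count of 11 was 4 without WT ascending pool 1, 0 without WT ascending pool 2, and 7 without either KO ascending pool. It was 3 when the 4 ascending arrays were fitted alone.

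The summed signal of the 32 neutrophil markers with a probe set, on the log2 scale, was 12.16 and 12.23 in KO ascending, 10.82 and 10.42 in WT ascending, 11.43 and 11.91 in KO descending, and 10.90 and 11.19 in WT descending aorta. By this sum the KO pools were above the WT pools in both segments, and WT ascending pool 2 was the lowest, as it was for the stefin A genes. Because linear signals are added, the brightest markers, S100a8 and S100a9, weigh most in it. In KO ascending pool 1 they read 10.80 and 10.20, where the sum was 12.16. Of this list, Ly6g and Padi4, with mean signals of 3.62 and 3.46, were too dim to test. The summed signal of the 4 stefin A members was 10.97 and 11.41 in KO ascending, 9.04 and 7.80 in WT ascending, 10.12 and 10.51 in KO descending, and 9.01 and 9.57 in WT descending aorta. In the descending aorta none of the 30 markers passed (0 of 30 by limma, with 8 higher and 0 lower at an unadjusted p under 0.05). Of all genes tested, 9.71% were higher at that unadjusted threshold. The median difference there was 0.23, beside -0.006 over all genes, and 20 of the 30 were above zero. Camp, there at 5.67 and 6.36 in KO and 4.70 and 4.90 in WT pools, differed by 1.21 (adjusted p = 0.0512 by limma), and S100a8, at 9.57 and 10.28 in KO and 8.62 and 9.20 in WT pools, by 1.02 (adjusted p = 0.16 by limma). How far a change in neutrophil content carries the stefin A signal was not tested.

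**Figure D3:**
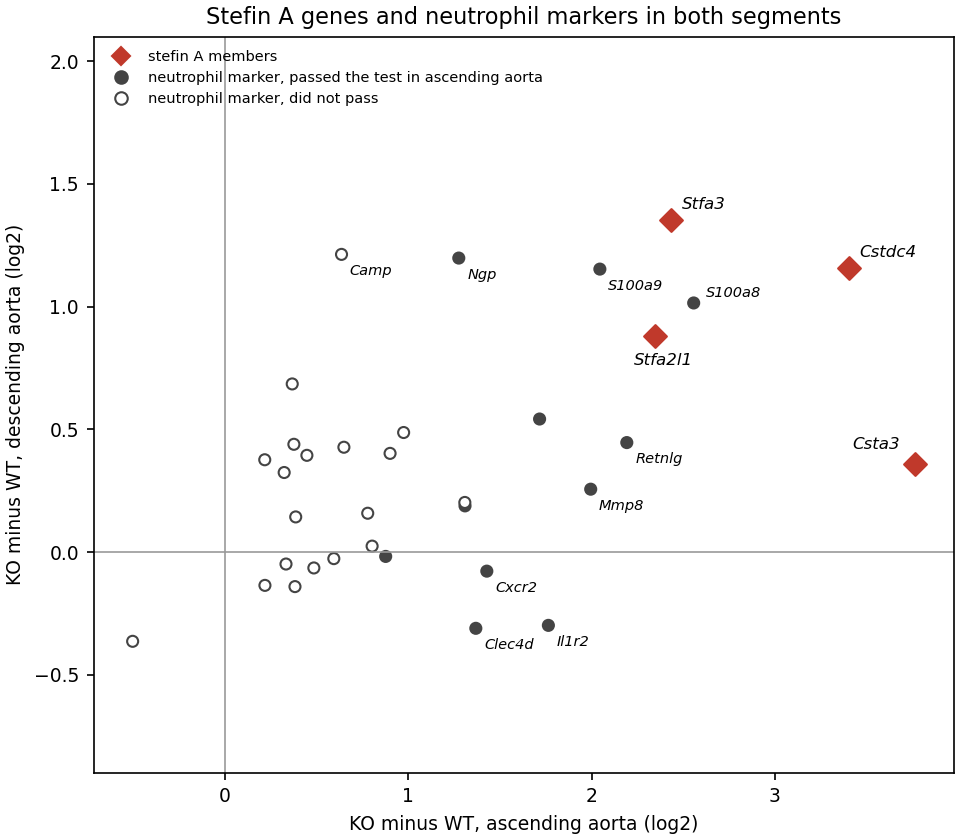
KO minus WT difference (log2) in the ascending aorta (horizontal) against the descending aorta (vertical) for the 4 stefin A members (diamonds) and 30 neutrophil markers (circles, filled where the adjusted p in the ascending aorta was under 0.05). Stfa2l1 (2.35 and 0.88) lies near S100a8 (2.56 and 1.02), and Csta3 (3.76 and 0.36) lies to the right of every marker. The ascending values of the members are those they were chosen on.

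The 10 genes whose profiles over the 8 arrays came nearest to the mean profile of the members were S100a8, Stfa1, S100a9, Retnlg, Slfn4, Mmp8, Egr1, Cstdc5, Cstdc6 and Igfbp2. Likeness was the root mean square difference in log2 after each gene was centred on its own mean, over 8 arrays, with no test. S100a8 was at 0.23, nearer to the members' mean than any of the members themselves, which lay at 0.25 (Cstdc4 and Stfa2l1), 0.41 (Stfa3) and 0.48 (Csta3). Stfa1 and S100a9, the partner of S100a8, followed at 0.40 each, and Igfbp2, a binding protein of insulin-like growth factors, was the last of the 10 at 0.60. Neutrophil markers (S100a8, S100a9, Retnlg and Mmp8) and cluster genes (Stfa1, Cstdc5 and Cstdc6) took 7 of the 10 places. The 8 arrays include the ascending ones on which the members were chosen, so a gene with a large ascending difference lies near their profile by construction, and 8 of the 10 nearest genes were among the 20 largest ascending differences towards a higher KO signal. Egr1, an immediate early transcription factor, was also among them, with 8.96 and 9.12 in KO ascending and 7.33 and 7.03 in WT ascending aorta.

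**Figure D4:**
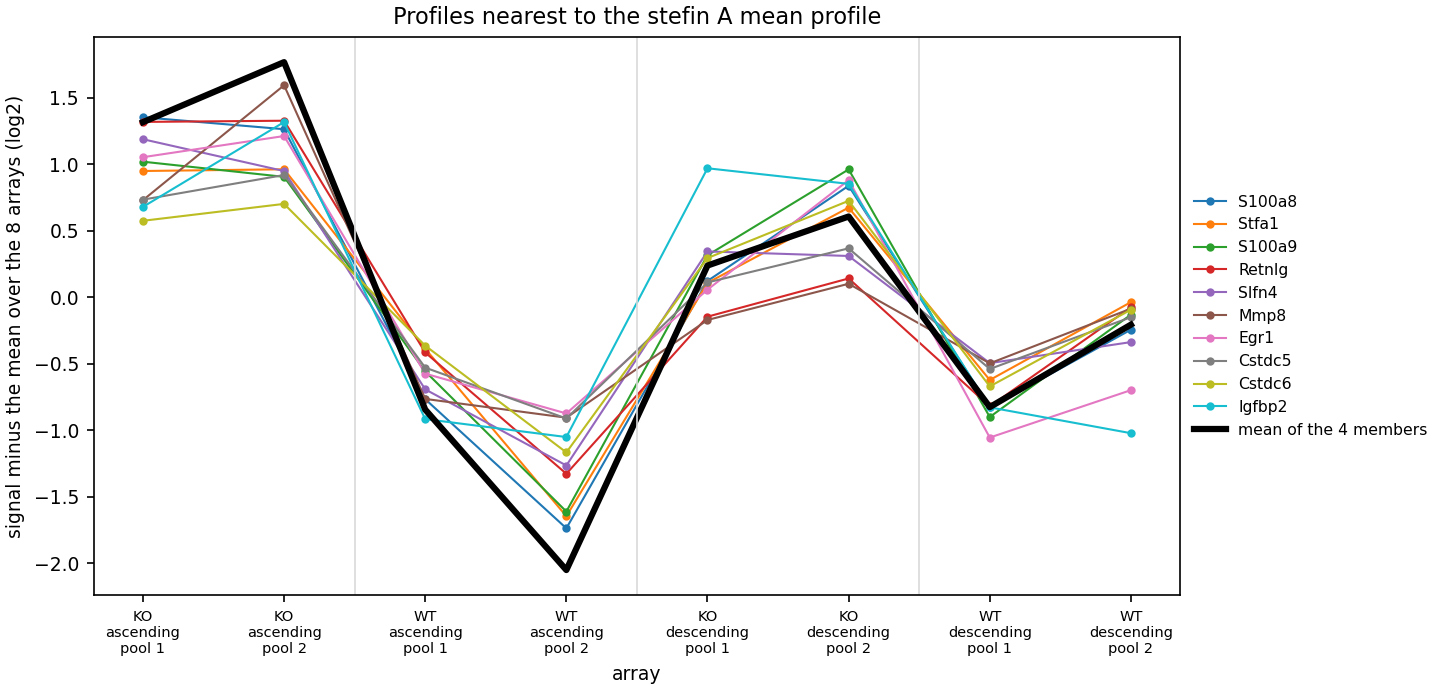
Signal of each of the 10 nearest genes (thin lines) and the mean of the 4 members (thick line) on the 8 arrays, each centred on its own mean (log2). S100a8 follows the thick line closest, at a root mean square difference of 0.23, and all lines are high on the KO ascending arrays.

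Each member was set against S100a8 on the same array, which shows where a stefin A gene and this neutrophil gene changed unequally. S100a8 was the gene nearest to the members' mean profile over these same 8 arrays. A nearly level difference was therefore favoured beforehand for a member close to that mean, such as Stfa2l1. Stfa2l1 minus S100a8 was -0.91 and -0.70 in KO ascending, -0.46 and -0.73 in WT ascending, -0.56 and -0.81 in KO descending, and -0.47 and -0.63 in WT descending aorta. The 8 values lay between -0.91 and -0.46, and no group stood clear of all others. Csta3 minus S100a8 was -2.69 and -2.23 in KO ascending, -3.63 and -3.69 in WT ascending, -3.96 and -4.22 in KO descending, and -3.45 and -3.41 in WT descending aorta. The KO and WT pools overlapped in neither segment, with KO above WT in the ascending and below WT in the descending aorta. The ascending values are those that chose Csta3 and are given as a description. Stfa3 minus S100a8 was -2.56 and -2.18 in KO ascending and -2.01 and -2.49 in WT ascending aorta, which overlapped. It was -1.52 and -1.60 in KO descending and -1.93 and -1.86 in WT descending aorta, which did not. Cstdc4 minus S100a8 ranged from -1.89 to -0.79 in KO ascending and from -2.25 to -2.12 in WT ascending aorta, and its descending groups overlapped.

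**Figure D5:**
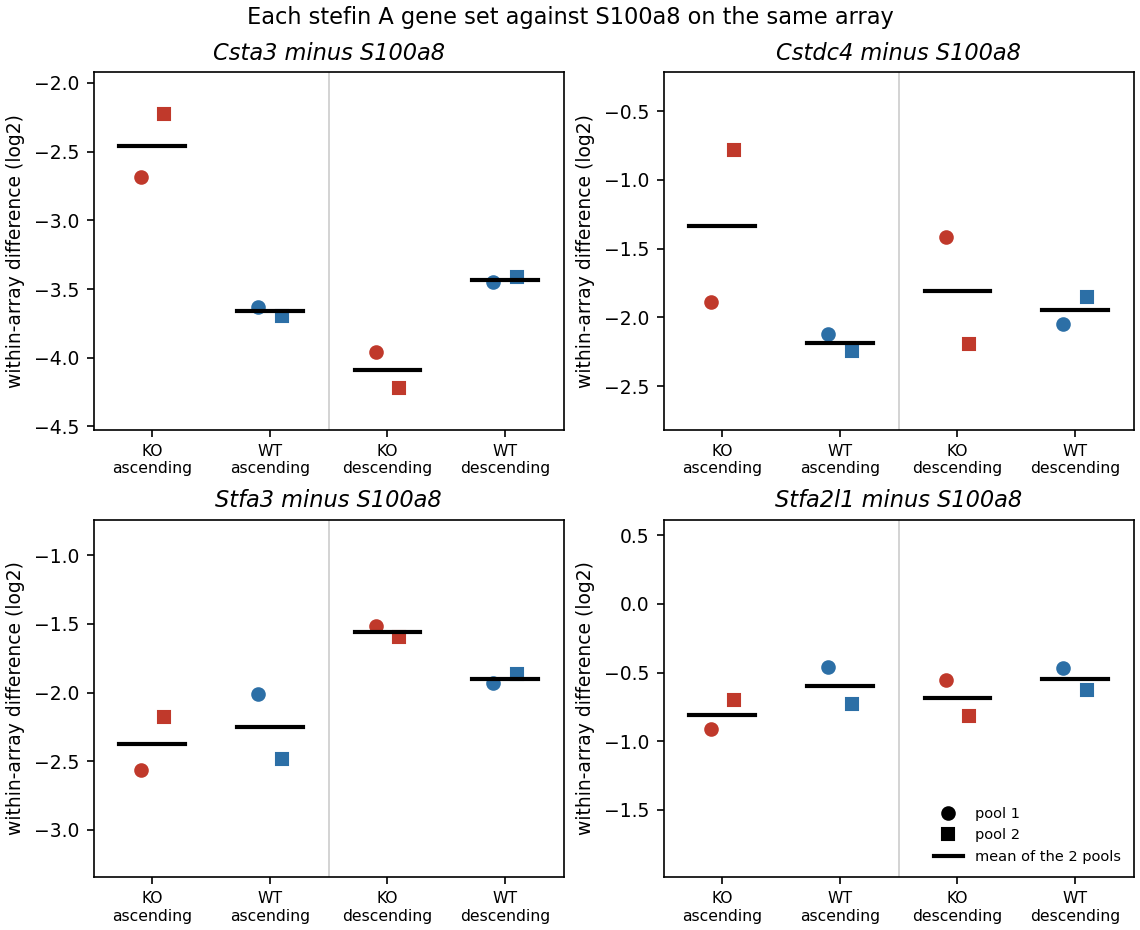
Within-array difference (log2) between each stefin A member and S100a8, by genotype and segment, with circles and squares for the 2 pools and bars for their mean. All panels span the same number of log2 units; Stfa2l1 stays nearly level, and Csta3 is highest in KO ascending aorta (mean -2.46) and lowest in KO descending aorta (mean -4.09).

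Other cell types that can hold stefin A transcripts, or that enter with blood, were read on the same arrays. Of all genes tested, 1.54% rose in the ascending KO aorta. Among genes that attract or sustain neutrophils, 4 of 11 rose there. They included the chemokines Cxcl1 (1.56) and Cxcl2 (1.26), Ppbp (1.65), which platelets store, and the cytokine Il1b (1.72), which the neutrophil list also holds. None passed in the descending aorta (0 of 11 by limma, with 2 at an unadjusted p under 0.05). Of 9 platelet genes, 6 rose in the ascending KO aorta, against the same 1.54% of all genes. The 6 included Ppbp, which is also 1 of the 4 attractant genes. Further examples were Tubb1, a platelet tubulin, at 1.22 and Gp9, a subunit of the von Willebrand factor receptor, at 1.08. None passed in the descending aorta (0 of 9, with 0 at an unadjusted p under 0.05). The 6 were 1 without WT ascending pool 1, 0 without WT ascending pool 2, 0 without KO ascending pool 1 and 3 without KO ascending pool 2, and the 4 attractant genes were 2 without WT ascending pool 1, 1 without WT ascending pool 2 and 2 without KO ascending pool 1.

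Of 18 macrophage and monocyte genes, 4 rose in each segment and 14 did not pass. Of all genes tested, 1.54% rose in the ascending and 1.46% in the descending aorta. The 4 differed between the segments except for Cx3cr1. The genes that rose were Ccr2 (1.08), Cx3cr1 (0.93), Cd14 (1.18) and Ly6c2 (1.25) in the ascending aorta by limma. In the descending aorta they were F13a1 (0.82), Cx3cr1 (0.86), Adgre1 (0.89) and Cd68 (0.63). The ascending count was 2 without WT ascending pool 2 and 1 without KO ascending pool 1, and the descending count was 0 without any 1 of the 4 descending pools. Keratinocytes, are another known site of stefin A. The 12 epidermal genes tested had a median difference of 0.06 in the ascending and -0.06 in the descending aorta. Of these, Krt14, a basal keratin, passed in the ascending aorta (0.91, adjusted p = 0.00952 by limma), with 6.31 and 6.44 in KO and 5.56 and 5.37 in WT pools, and Dsp, desmoplakin, in the descending aorta (0.81, adjusted p = 0.0208 by limma). Perp, a desmosome protein, differed by -0.80 in the ascending and -0.66 in the descending aorta (adjusted p = 0.0905 and 0.151 by limma). At an unadjusted p under 0.05, 3 epidermal genes were higher and 1 lower in the ascending aorta, and 1 higher and 2 lower in the descending aorta. The summed signal of the epidermal list was 10.58 and 10.60 in KO ascending and 10.53 and 10.42 in WT ascending aorta. Mast cell, basophil and eosinophil genes had a median difference of -0.02 in the ascending and -0.46 in the descending aorta, and none of 9 passed in either (0 by limma, with 1 lower at an unadjusted p under 0.05 in the ascending aorta, and 1 higher and 4 lower in the descending).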

How the data were processed

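The deposited values were log2 signals of 41345 probe sets, computed by the authors using RMA and Affymetrix Expression Console, per the submitters' processing notes. A version was not given in the sources used here. Array medians were 5.11 to 5.19. Only the 23521 probe sets with exactly 1 symbol were used, the brightest for each of 22180 genes. Dropping genes whose mean signal was under the 25th percentile (4.11) left 16635. A limma 3.58.1 model (R 4.3.3) had a term for each of the 4 groups, all 8 arrays and no covariate, with eBayes moderation (residual df 4, prior df 4.51) and Benjamini-Hochberg adjustment over all genes. A gene passed at an adjusted p under 0.05. The p-values measure spread between pools.

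The members and the 17 gene lists were chosen with earlier results of these data known. Members were tested in the descending aorta alone. A rule named the members, Lox, the stefin genes, up to 4 genes per list and segment by smallest p, and the 10 nearest profiles, without predicted genes, clones, small RNAs and olfactory receptors; Camp in the ascending aorta was added after its values were seen. In data simulated for the descending comparison, recovery was 19.7% at a change of 0.5 log2, 75.5% at 1 and 98.5% at 2, with 4.04% of calls false. The changed genes were drawn at random from all genes tested, each with its own spread. Recovery at the members' own SEs, 0.34 to 0.43 in the descending aorta, was not simulated, so these shares need not hold for them. Promoters were aligned locally in biopython 1.88. The 18 alternatives changed the dim filter, prior, scaling, array weights, replicate block, probe set rule or arrays fitted.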

Additional observations from a re-analysis of the deposited data

How the results depend on the processing

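Where an array was left out, its partner was taken to vary like the other groups. In the descending aorta no member passed under any of the 18 alternatives, and every difference kept its direction; the lowest adjusted p was 0.057 for Stfa3, 0.0696 for Stfa2l1, 0.0912 for Cstdc4 and 0.469 for Csta3. With single arrays left out, differences were 1.03 to 1.68 for Stfa3, 0.77 to 1.55 for Cstdc4, 0.65 to 1.11 for Stfa2l1 and 0.05 to 0.67 for Csta3 in the descending aorta, and 1.71 to 3.16 for Stfa3, 2.86 to 3.95 for Cstdc4, 1.73 to 2.97 for Stfa2l1 and 3.24 to 4.28 for Csta3 in the ascending aorta. The 380 genes that passed in the descending aorta were 155 with no dim filter, 717 when genes below the 50th percentile were dropped, 922 under a prior that was trended and robust, 105 when only the 4 arrays compared were fitted, and 20 to 226 with single arrays left out. The 455 in the ascending aorta were 303, 756, 1014 and 100 under the same settings, and 64 to 353 with single arrays left out. Neutrophil markers that rose in the ascending aorta (11) were 7 with the filter at the 50th percentile, 3 with the 4 arrays alone and 0 to 11 with single arrays left out. In the descending aorta (0) they were 2 with the trended robust prior, 2 with arrays shifted to 1 median, 1 with array weights and 0 to 1 with single arrays left out. The alternatives for Stfa1, Cstdc5, Cstdc6 and the platelet, macrophage and attractant counts were chosen after seeing the data. With the replicate number as a block, 200 genes passed in the descending aorta; across genes, the differences between pools 1 and 2 of KO and WT correlated at 0.126 in the ascending and 0.115 in the descending aorta, and those across segments at -0.095 to -0.022. No label ties the numbers to a litter or day, and the block changed no call of a member. Where a count moved, the cause was not tested, beyond fewer arrays or another set of genes tested. Signals near the dim limit carry the least precision.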

Other observations

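Neutrophil genes were also read by kind. Of 10 genes of primary and secondary granules, which are transcribed in precursors, 9 had a higher mean signal in KO than in WT descending pools. Their median difference was 0.41, beside -0.006 over all genes. At an unadjusted p under 0.05, 5 were higher, as were 9.71% of all genes tested, though none passed (0 of 10 by limma). Ngp, a secondary granule gene, read 5.72 and 6.58 in KO and 4.91 and 5.001 in WT descending pools (difference 1.20, adjusted p = 0.0622 by limma). Of 9 receptor and mature-stage genes, 4 were higher, with a median difference of -0.05 (0 of 9 passed by limma, with 1 higher and 0 lower at an unadjusted p under 0.05). The gene with the smallest p was Mmp9, a gelatinase, with 5.53 and 5.07 in KO and 4.85 and 4.96 in WT descending pools (difference 0.39, adjusted p = 0.214 by limma), and Clec4d read 5.64 and 5.41 in KO and 5.88 and 5.80 in WT descending pools (difference -0.31, adjusted p = 0.406 by limma). In the ascending aorta both kinds were higher in KO, 10 of 10 granule genes (median 0.49, 2 passed) and 9 of 9 receptor genes (median 0.70, 3 passed). The median over all genes was 0.011 there, and 1.54% of all genes tested passed with a higher KO signal. The difference between the lists was not tested.

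Of 8 erythroid genes, Tspo2 rose in the ascending aorta by 1.24 and none passed in the descending aorta (0 of 8 by limma, with 2 at an unadjusted p under 0.05). Tspo2 read 4.92 and 5.25 in KO ascending and 3.56 and 4.125 in WT ascending aorta. Its mean over the WT arrays of both segments lay just below the limit of 4.11 set for dim genes. Of 12 endothelial genes, Kdr and Nos3 fell by 0.62 and 0.65 in the ascending aorta and Kdr fell by 0.54 in the descending aorta. At an unadjusted p under 0.05, 6 of the 12 were lower in the ascending and 9 in the descending aorta, and 0 were higher in either. The share of all genes that were lower at this threshold was not computed. Median differences were -0.32 and -0.35, beside 0.011 and -0.006 over all genes, and 1 of 12 lay above zero in each segment. Of 13 epithelial and airway genes, Sftpc fell by 4.35 in the descending aorta (adjusted p = 0.00577 by limma), and none passed in the ascending aorta (0 of 13, with 0 at an unadjusted p under 0.05). None of 12 lymphocyte and thymus genes passed in either segment (0 of 12, with 1 lower at an unadjusted p under 0.05 in each).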
